A study of Homo sapiens with 2 samples.

Results

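EPHA1, PRRG4, IL31RA, SCN8A and TGFA are 5 protein-coding genes whose read counts were much lower in NK92 cells given PPMX-T003 than in control cells. They were chosen by their measured values: at least 100 counts summed over both libraries, a count at least 2-fold lower with PPMX-T003, and no exon shared with a neighbouring gene on the same strand. They are 5 of 46427 genes in the deposited table and 5 of the 9992 protein-coding genes with at least 100 summed counts. Their fall is therefore a description of how they were selected, and no test of it is given.

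NK92 cells are a long-established human line of natural killer (NK) cells derived from aggressive NK cell leukemia, and PPMX-T003 is an inhibitory antibody against transferrin receptor 1 (TfR1), the receptor by which cells take up transferrin-bound iron. A single culture, kept in medium with human serum, was pre-incubated for 18 h and only then divided equally between the dishes, in fresh medium. The PPMX-T003 dish received 10 µg/mL of the antibody for 6 h and the control dish received nothing. Poly(A)-selected RNA was sequenced from 1 library per condition, with 46766416 counts in the control library and 43178462 in the PPMX-T003 library. The columns of the deposited table are named as 0 h and 6 h, whereas the methods describe the same additional culture for both dishes. A difference in harvest time would go with the antibody and cannot be told apart from it. With 1 library per condition no value below has a replicate check, and every interval covers counting error only. A single cultured line also does not stand for NK cells in tissue.

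The 5 genes come from unrelated families, but each encodes a protein of the cell membrane. EPHA1 is an Eph receptor tyrosine kinase that binds ephrin-A ligands on adjoining cells, and PRRG4 is a membrane protein whose outer domain carries glutamates carboxylated with the help of vitamin K. IL31RA pairs with OSMR to form the receptor of interleukin 31, SCN8A is the pore-forming subunit of a voltage-gated sodium channel of neurons, and TGFA is an epidermal growth factor receptor (EGFR) ligand released from a membrane-bound precursor.

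The cells carried the RNA of NK cells in both libraries. All 10 NK cell markers had more than 3 counts in each library. Their summed levels were 3986 CPM (counts-per-million, scaled for library size) in the control library and 4406 CPM in the PPMX-T003 library. IL2RB had the highest CPM, but divided by transcript length NKG7 stood above IL2RB in both libraries. Of the 6 T cell markers, CD3D, CD3G, CD8A and CD5 had no count, while CD3E stood at 408 and 439 CPM. All 3 erythroid markers were at 0 counts, as were 4 of the 5 epithelial markers, and the fifth, KRT8, had 2 counts and 0. Of the B cell markers, MS4A1 was at 0 and CD79A at 0.299 and 0.278 CPM, and the 4 myeloid markers summed to 5.06 and 4.54 CPM, mostly ITGAM. Of the 4 neuron markers, 3 had more than 3 counts in each library and RBFOX3 had none. Their summed levels were 9.36 and 7.86 CPM, with SYT1 highest in CPM. Per length, SNAP25 stood above SYT1 in the control library and below it with PPMX-T003. In bulk RNA, fewer cells expressing a gene and less RNA of it per cell cannot be told apart.

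EPHA1 was the most deeply counted of the 5 genes. Its 17728 bp lie at chr7:143391129-143408856 on the minus strand of GRCh38.p14, and its transcript has 18 exons. It had 871 counts in the control library and 222 in the PPMX-T003 library. These correspond to 18.6 CPM (95% Poisson interval 17.4 to 19.9) and 5.15 CPM (4.49 to 5.87). Both intervals cover counting error in a gene chosen for its fall, so the distance between them is no test of it. The log2 fold change was -1.85, with a 95% counting interval of -2.07 to -1.64, so the level with the antibody was 27.8% of the control level. The deposited TPM values, a length-corrected transcript level rounded to whole numbers, were 13 and 3.

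PRRG4, at chr11:32829789-32858120 on the plus strand with 6 exons, stood at the lowest level per length. It had 86 counts in the control library and 15 in the PPMX-T003 library, or 1.84 CPM (1.47 to 2.27) and 0.348 CPM (0.195 to 0.573). Its log2 fold change of -2.26 was the lowest of the 5 genes, but with so few counts its interval reached from -3.30 to -1.60 and overlapped that of EPHA1. The deposited TPM did not show this fall, since it was listed as 1 in both libraries. From the counts and a transcript of 5530 bases, TPM values of 0.788 and 0.145 would be obtained, and the latter would round to 0. A change in the transcripts that carry the reads, which would alter the length behind each TPM, was not tested.

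IL31RA, at chr5:55839789-55922850 on the plus strand with 18 exons, had 112 counts in the control library and 42 in the PPMX-T003 library. Its levels were 2.39 CPM (1.97 to 2.88) and 0.973 CPM (0.702 to 1.32). The log2 fold change was -1.26 (-1.85 to -0.77).

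SCN8A, at chr12:51591233-51812864 on the plus strand with 27 exons, is the longest of the 5 genes. It had 218 counts in the control library and 98 in the PPMX-T003 library, equal to 4.66 CPM (4.06 to 5.32) and 2.27 CPM (1.84 to 2.77). Its log2 fold change was -1.02 (-1.40 to -0.69), just past the 2-fold limit. Of the neuron markers, SYT1 had 297 counts and 259 (-0.08, -0.33 to 0.17), SNAP25 137 and 73 (-0.78, -1.22 to -0.37), MAP2 4 and 7, and RBFOX3 none. Their part in the SCN8A result was not tested.

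TGFA, at chr2:70447284-70553826 on the minus strand with 6 exons, had 109 counts in the control library and 49 in the PPMX-T003 library. This gave 2.33 CPM (1.91 to 2.81) and 1.14 CPM, whose interval began at 0.840 and ended below that of the control, and a log2 fold change of -1.01 (-1.55 to -0.54). TGFA lay nearest to the limit, and its deposited TPM was listed as 1 in both libraries.

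**Figure D1:**
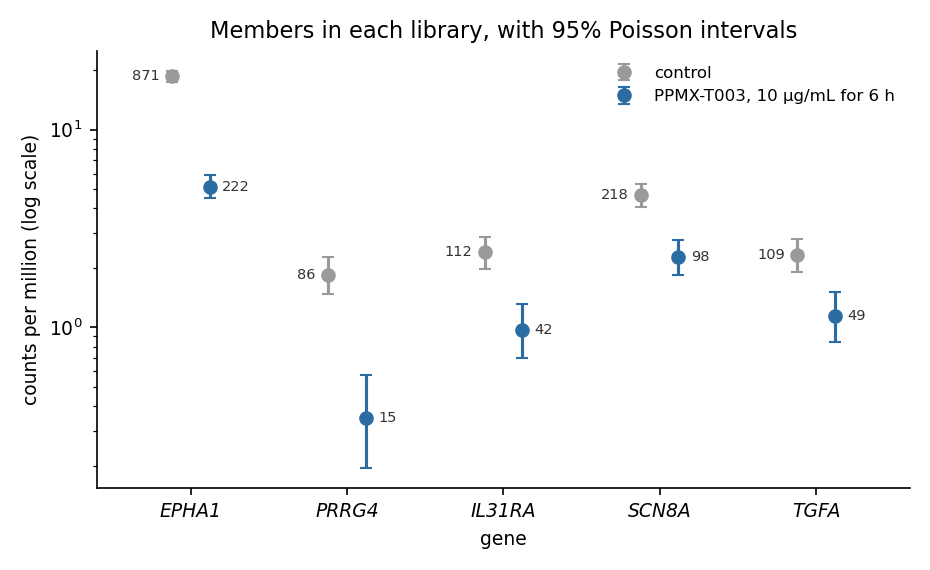
CPM (log axis) of each of the 5 genes in the control library (grey) and the PPMX-T003 library (blue), with 95% Poisson intervals as bars and the counts as printed numbers. In each gene the PPMX-T003 value lies below the control value with no overlap of the bars, from 871 against 222 counts in EPHA1 to 86 against 15 in PRRG4. This separation goes with the limits by which the genes were chosen and is no test.

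The size of the fall was known with different precision across the 5 genes. The intervals of EPHA1 and PRRG4 lay wholly past 2-fold, whereas those of IL31RA, SCN8A and TGFA reached to smaller changes. Of the 10 pairs among the 5 genes, 4 had fold change intervals that did not overlap: EPHA1 or PRRG4 against SCN8A or TGFA. The falls of IL31RA, SCN8A and TGFA could not be distinguished from each other at this depth.

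Levels between genes were compared as RPKM, the CPM divided by the length of a matching transcript in kilobases. In the control library EPHA1 stood highest at 5.53 RPKM (5.17 to 5.91), followed by IL31RA at 0.824 (0.679 to 0.992), TGFA at 0.540 (0.444 to 0.652), SCN8A at 0.403 (0.351 to 0.460) and PRRG4 at 0.332 (0.266 to 0.410). TGFA overlapped SCN8A and SCN8A overlapped PRRG4 in these counting intervals, while the other 8 of 10 pairs were apart. With PPMX-T003 the order of RPKM was the same, from 1.53 (1.34 to 1.74) in EPHA1 to 0.0629 (0.0352 to 0.104) in PRRG4, and IL31RA, TGFA and SCN8A lay at 0.335, 0.263 and 0.197, where TGFA overlapped both IL31RA and SCN8A in its interval. Among 9951 protein-coding genes with at least 100 counts and a known length, the control RPKM of EPHA1 was at the 27.9th percentile. The other genes were near the bottom, at the 5.46th (IL31RA), 3.03rd (TGFA), 1.71st (SCN8A) and 1.14th (PRRG4) percentile. All 5 were thus transcripts of low or very low abundance in these cells.

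A change past 2-fold was rare in these libraries, in either direction. Of the 9992 protein-coding genes with at least 100 counts, 12 (0.12%) were at least 2-fold lower and 13 (0.13%) at least 2-fold higher with PPMX-T003. Of the 12 lower genes, 5 have exons in common with another gene of the same strand in GENCODE release 29, and 1 is not listed there. The other 6, among them the 5 genes described here, share none. MYO5B, a myosin motor of recycling endosomes, went from 1177 to 457 counts (-1.24, -1.41 to -1.09), close to IL31RA at -1.26 but on more reads. However, MYO5B shares exons with an annotated transcript on its own strand.

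Among the genes just inside the 2-fold limit, from the nearest outward, were TGFA, SCN8A, MYO5B and IL31RA. Just outside it lay SPART at -0.99 (71 counts in the control library and 32 with the antibody), PAX5 at -0.98 (169 and 78), AGAP4 at -0.97 (119 and 55), LOC100289561 at -0.97 (206 and 96) and C21orf58 at -0.96 (1449 and 685). The gap between TGFA at -1.01 and SPART at -0.99 is far smaller than the counting interval of either gene. The limit thus separates SCN8A and TGFA from genes whose changes could not be told from theirs.

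The genes whose log2 fold change was nearest to that of each of the 5, among all genes with at least 100 counts, were of mixed kinds. Nearest to EPHA1 were ASNS (107 and 25 counts, -1.90), LOC105378120 (-1.60) and STAG3L3 (-1.55), and nearest to PRRG4 were TMEM256-PLSCR3 (-2.26), PLA2G4B (-2.43) and ASNS. TRIM59-IFT80 (-1.25), MYO5B and BTN2A3P (-1.16) lay nearest to IL31RA. For SCN8A these were RN7SL1 (-1.02), LOC105373637 (-1.03) and TGFA, and for TGFA they were RN7SL1, SCN8A and SPART. ASNS, PLA2G4B, TMEM256-PLSCR3 and RN7SL1 share exons with other annotated genes, so the division of their reads is an estimate.

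In the opposite direction, 5 of the 13 protein-coding genes at least 2-fold higher have no exon in common with another annotated gene of their strand. CRYBB3, a lens crystallin, had 64 counts in the control library and 160 with the antibody (1.41, 1.01 to 1.88), and its interval alone of the 5 lay wholly past 2-fold. NOL3, an inhibitor of apoptosis, had 31 and 74 counts (1.32, 0.75 to 2.03), and TOR4A, of the torsin family, 36 and 78 (1.19, 0.65 to 1.84). GSN, the actin-severing protein gelsolin, had 67 and 132 (1.07, 0.66 to 1.54), and PANO1 had 45 and 86 (1.02, 0.52 to 1.61). These rising genes had fewer reads than EPHA1, and none of the 8074 protein-coding genes with at least 1000 counts was 2-fold higher.

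The 5 genes, selected on this fold change, fell in different classes of depth. In the class of at least 1000 summed counts, EPHA1 had the lowest log2 fold change of 8074 genes, MYO5B was the other gene past 2-fold lower, and the 2.5th percentile of the class was -0.33. SCN8A belonged to the 532 genes with 200 to 400 counts, of which 3 (0.564%) were 2-fold lower and 3 higher, with a 2.5th percentile of -0.73. PRRG4, IL31RA and TGFA belonged to the 443 genes with 100 to 200 counts, of which 7 (1.58%) were 2-fold lower and 8 (1.81%) higher, with a 2.5th percentile of -0.83. EPHA1, with 1093 summed counts, lay near the lower end of its class, and in the class below it, with 400 to 1000 counts, the 2.5th percentile of 943 genes was -0.44 and none was 2-fold lower. The share of genes past 2-fold was higher in the shallow classes, in both directions.

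**Figure D2:**
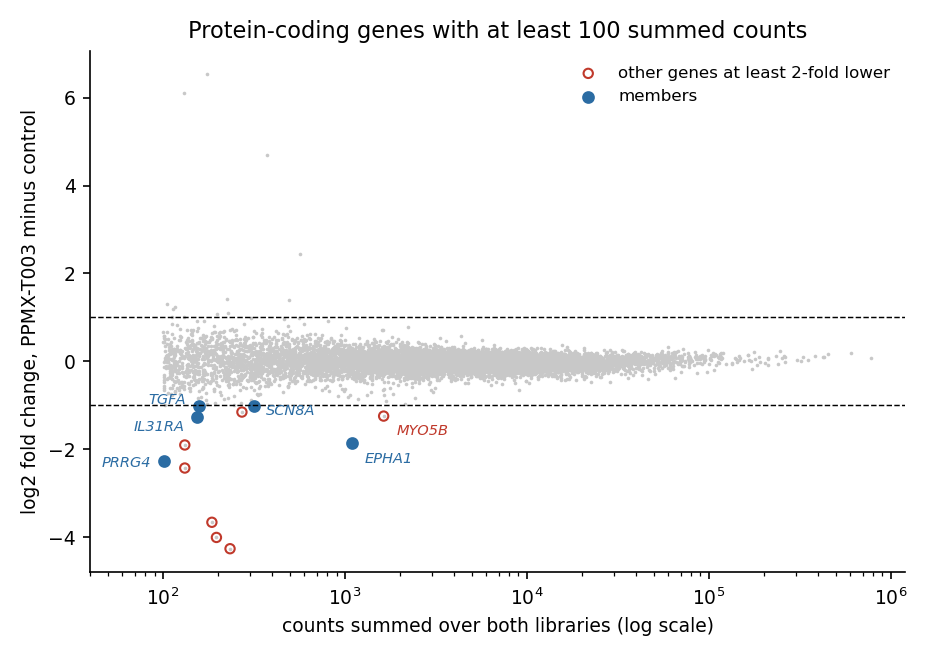
Log2 fold change (PPMX-T003 minus control) against the counts summed over both libraries (log axis) for the 9992 protein-coding genes with at least 100 counts, with the 5 genes in blue, the other genes at least 2-fold lower as red circles and dashed lines at 2-fold. The cloud narrows to the right, with EPHA1 at -1.85 and with SCN8A and TGFA on the lower line.

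The families and pathways of the 5 genes were read from 126 listed genes other than the 5, of which 57 had at least 20 summed counts. Their median log2 fold change was -0.04, against 0.00 for all 13665 genes with at least 20 counts. Of the 57, ANK3 was at least 2-fold lower and CLCF1 at least 2-fold higher, while 1.38% of all genes were 2-fold lower and 1.27% higher. The counting interval lay below 0 in 19 of the 57 and above 0 in 11, where 23.9% of all genes lay below and 21.8% above. The medians of the separate lists lay between -0.23 for sodium channel genes and 0.05 for Gla protein and vitamin K genes.

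EPHA1 carried nearly all Eph receptor RNA of these cells. Of the other 13 Eph receptors 8 had no count in either library, and EPHA4 (16 counts in the control library and 10 with the antibody) and EPHB4 (34 and 51) passed 20 counts. Per length, EPHA1 made up 96.0% of the RPKM summed over the 14 receptors in the control library and 81.4% with PPMX-T003. EPHB4 had a log2 fold change of 0.67 (0.05 to 1.37), opposite in sign to that of EPHA1. None of the 5 ephrin ligands with at least 20 counts was lower by its interval: EFNB1 had 316 and 380 counts (0.38, 0.16 to 0.60), and EFNA3, EFNA4, EFNA5 and EFNB2 had intervals that held 0. Among the 13 measured signalling genes, 8 had intervals below 0, with NCK2, an adaptor protein, lowest at -0.33 (-0.60 to -0.07). Another 3 had intervals above 0, with ILK, the integrin-linked kinase, highest at 0.24 (0.13 to 0.34). Over all genes with at least 20 counts, 23.9% lay below 0 and 21.8% above. Intervals are narrow in deeply counted genes and leave out 0 at small changes, and the share at matching depth is not given. ADAM10, a protease that cleaves ephrins, stood at -0.20 (-0.25 to -0.15).

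In the family of PRRG4, PRRG2 was the other gene detected. PRRG2 had 54 counts in the control library and 61 with PPMX-T003 (0.28, -0.26 to 0.85), and PRRG1 and PRRG3 had none. Per length, PRRG2 stood above PRRG4 in both libraries, at 0.822 and 1.01 RPKM. PRRG4 made up 28.8% of the RPKM summed over this family in the control library and 5.88% with PPMX-T003. The enzymes of the vitamin K cycle were detected in both libraries. The carboxylase GGCX had 577 and 528 counts (-0.01, -0.18 to 0.16), VKORC1 1534 and 1462 (0.05, -0.06 to 0.15) and VKORC1L1 4766 and 4031 (-0.12, -0.19 to -0.06). Of 10 secreted Gla proteins 9 had no count in either library and none reached 20. MERTK, a receptor for the Gla protein GAS6, had 70 and 87 counts (0.42, -0.04 to 0.91).

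The partner that IL31RA needs for interleukin 31 was not detected. OSMR had 0 counts in both libraries, which allows up to 0.0641 CPM in the control library and 0.0695 CPM in the PPMX-T003 library at 3 counts each, and IL31 itself also had 0. IL6ST, which encodes the related receptor gp130 and lies next to IL31RA, had 1849 and 1395 counts (-0.29, -0.39 to -0.19). IL12RB1 stood at 0.22 (0.14 to 0.30), and IL12RB2 and IL27RA at -0.02 and 0.05 with intervals that held 0. Of the 7 measured JAK, STAT and related genes 4 had intervals below 0 and 1 above, where 23.9% of all genes lay below and 21.8% above. STAT5B was lowest at -0.13 (-0.20 to -0.07) and STAT5A highest at 0.07 (0.02 to 0.12), small changes in deeply counted genes with narrow intervals. Of the ligands, OSM had 617 and 587 counts (0.05, -0.12 to 0.21), and CLCF1 had 9 and 25 (1.40, 0.44 to 2.87). CLCF1 shares exons with another annotated gene of its strand, so the division of its reads is an estimate.

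The sodium channel list had the lowest median, -0.23 over 7 measured genes, against 0.00 for all genes with at least 20 counts, and the intervals of 4 of the 7 held 0. This value moved with how it was taken, to -0.12 with a minimum of 100 counts and to -0.41 as a mean. SCN3A was the channel with the highest level per length among the alpha subunits, at 2.52 RPKM in the control library and 2.32 with the antibody, and had 1071 and 911 counts (-0.12, -0.25 to 0.01). SCN2A had 107 and 55 counts (-0.82, -1.34 to -0.36), a change whose interval overlapped that of SCN8A. However, SCN2A shares exons with another annotated gene of its strand, so the division of its reads is an estimate. ANK3, which encodes the ankyrin that anchors these channels in neurons, had 56 and 19 counts (-1.36, -2.28 to -0.67). NEDD4L, a ubiquitin ligase acting on sodium channels, was higher at 0.33 (0.10 to 0.57). SCN8A accounted for 12.2% of the RPKM summed over the 9 alpha subunits in the control library and 6.95% with PPMX-T003.

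The main receptor of TGFA was likewise not detected, since EGFR had 0 counts in both libraries. ERBB2, a co-receptor of the same family with no ligand of its own, had 175 and 252 counts (0.64, 0.36 to 0.93), and ERBB3 and ERBB4 did not reach 20. Among the other ligands, HBEGF had 299 and 336 counts (0.28, 0.06 to 0.52) and NRG4 58 and 43 (-0.30, -0.92 to 0.28). TGFA made up 12.1% of the RPKM summed over the 11 ligands in the control library and 6.01% with the antibody. ADAM17, the protease that releases TGFA, stood at -0.07 (-0.16 to 0.01). CBL, a ubiquitin ligase of receptor tyrosine kinases, stood at -0.31 (-0.36 to -0.27), the lowest of the signalling genes of this list, and SOS1, SHC1 and LRIG1 had intervals that held 0.

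**Figure D3:**
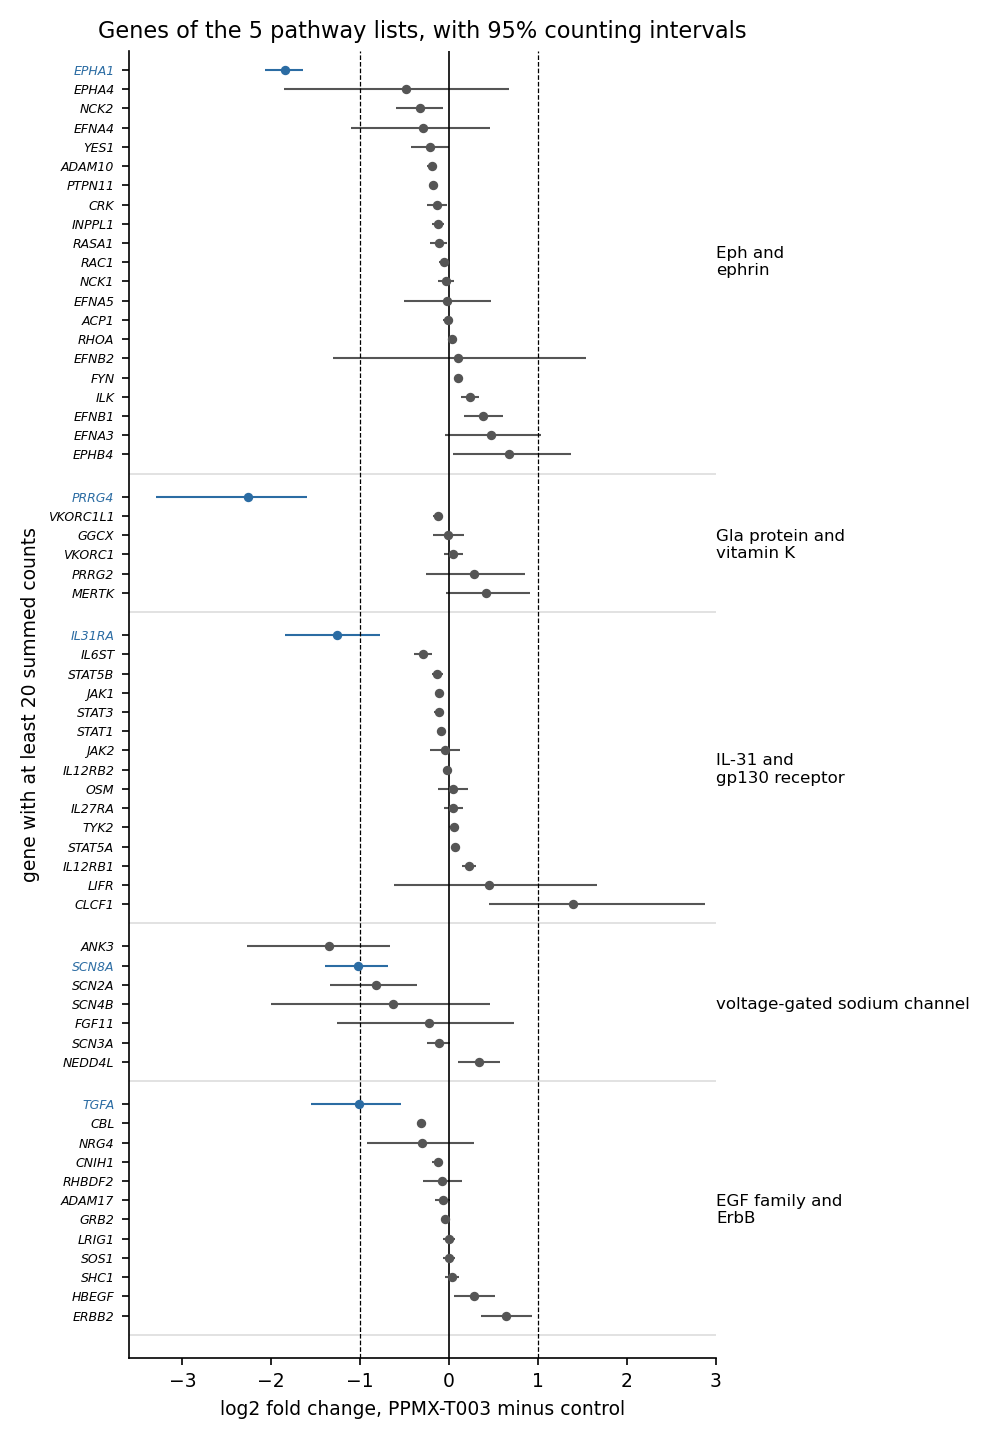
Log2 fold change (PPMX-T003 minus control) with 95% counting intervals of genes from 5 pathway lists that had at least 20 summed counts, with the 5 genes in blue and dashed lines at 2-fold. In the Eph, Gla protein, interleukin 31 and EGF lists the blue gene is the lowest, and in the sodium channel list ANK3 lies below SCN8A and SCN2A beside it. The low place of the blue genes goes with their choice by this fold change and is no test of the lists.

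The genes beside the 5 on the chromosome that had at least 20 counts changed less than 2-fold. Where their intervals left out 0, they lay below it. Over all genes with at least 20 counts, 23.9% of intervals lay below 0 and 21.8% above. ZYX, which encodes the focal adhesion protein zyxin and in RefSeq ends 0.018 kb from EPHA1, had 9903 counts in the control library and 9207 with PPMX-T003 (0.01, -0.03 to 0.05). In GENCODE release 29, whose transcripts reach further, exons of ZYX and EPHA1 overlap on opposite strands, and because the counting is not stated to use strand, reads of the pair cannot be assigned with certainty. On the other side of EPHA1, EPHA1-AS1 overlaps the gene with 5 counts and 0, and TAS2R60 had 0 in both. QSER1, 34.7 kb after PRRG4, stood at -0.19 (-0.27 to -0.12), and CCDC73, which overlaps the start of PRRG4, had no count. Beside IL31RA, IL6ST lay 12.2 kb away and stood at -0.29 (-0.39 to -0.19), and DDX4 had 0 counts and 5. SLC38A9, 127 kb before IL31RA, stood at -0.17 (-0.30 to -0.04). FAM136A, 145 kb from TGFA, had 10929 and 10142 counts (0.01, -0.03 to 0.05), and ADD2 on the other side had 0.

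Beside SCN8A, the bicarbonate transporter gene SLC4A8, 75.5 kb before it, had 1353 and 962 counts (-0.37, -0.50 to -0.25). FIGNL2, 5.03 kb after SCN8A, had 19 and 20 counts (0.17, -0.79 to 1.18), and the pseudogene HNRNPA3P10, which lies inside SCN8A, had 21 and 14 (-0.42, -1.56 to 0.58). An antisense transcript overlaps exons of SCN8A in GENCODE release 29, so the caution on strand holds for SCN8A too.

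The 5 genes did not share an evident feature of structure. Gene length ranged from 17728 bp in EPHA1, at the 34.2nd percentile of protein-coding genes with at least 100 counts, to 221632 bp in SCN8A, in the longest 10% of them. GC content of the transcript ranged from 39.1% in PRRG4 (12.2nd percentile) to 59.4% in EPHA1 (84.5th percentile). Over all these genes the median log2 fold change went down with gene length, from 0.11 in the shortest 10% to -0.12 in the longest 10%, and went up with GC content, from -0.14 in the lowest 10% to 0.13 in the highest 10%. EPHA1 is a shorter gene than the median, with a transcript richer in GC. The classes of genes like it in gene length or GC content had medians of 0.03 and 0.09, and the GC class of PRRG4 had a median of -0.11. IL31RA, TGFA and SCN8A were in classes 8, 9 and 10 of the 10 classes by gene length, where the medians were -0.07, -0.11 and -0.12. By transcript length the median went from 0.10 in the shortest 10% to -0.15 in the longest 10%. The classes of IL31RA, EPHA1, TGFA, PRRG4 and SCN8A by transcript length had medians of 0.02, -0.01, -0.03, -0.09 and -0.15. With the relation to GC content and transcript length removed, EPHA1 stood at -1.92, PRRG4 at -2.14 and IL31RA at -1.23, while SCN8A at -0.91 and TGFA at -0.96 were short of 2-fold.

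The start regions of 4 of the 5 genes, all but IL31RA, were matched in the RefSeq promoter table (GRCh38.p14). Each of the 4 held the GC box GGGCGG on either strand in the 250 bases before the start, with 5 matches in EPHA1, 3 in PRRG4, 9 in SCN8A and 3 in TGFA. The same letters occur in 67.2% of the 8352 promoters of protein-coding genes with at least 100 counts. None of the 4 windows held the E-box CACGTG (9.29% of all promoters), the AP-1 letters TGANTCA (3.46%), the STAT letters TTCNNNGAA (5.68%), the TATA letters TATAAA (4.97%) or ACGTG (24.7%), which is also part of the E-box. The GC content of the 250 bases was 59.2% in EPHA1, 74.0% in PRRG4, 75.6% in TGFA and 85.6% in SCN8A, around a median of 64.4%. Parts of these windows outside annotated exons are shown for EPHA1 and PRRG4, the genes with the deepest falls, with the GC box in capitals. The EPHA1 stretch is 214 bases at chr7:143408893-143409106 on the minus strand, and the PRRG4 stretch is 112 bases at chr11:32829677-32829788 on the plus strand.
EPHA1: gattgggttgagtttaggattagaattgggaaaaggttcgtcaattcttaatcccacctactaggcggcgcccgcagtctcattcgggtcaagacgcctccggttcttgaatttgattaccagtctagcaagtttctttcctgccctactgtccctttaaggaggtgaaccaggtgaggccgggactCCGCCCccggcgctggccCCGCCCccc
PRRG4: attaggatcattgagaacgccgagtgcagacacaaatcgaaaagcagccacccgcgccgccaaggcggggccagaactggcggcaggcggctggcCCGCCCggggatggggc
The EPHA1 stretch held 2 GC boxes at its end nearest the gene and the PRRG4 stretch held 1. These matches are a description of the letters and not of a bound factor.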

How the data were processed

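Stranded poly(A) libraries of NK92 cells were aligned by the authors to hg38. The submitters' processing notes name Trimmomatic 0.38, HISAT2 2.2.0, StringTie 2.1.3b and edgeR 3.17, and the strand setting of the counting is not given in the sources used here. Each gene has, as deposited by the authors, a read count per library, written with commas that were removed, and FPKM and TPM rounded to whole numbers, which were therefore handled as a score and entered only as alternatives. StringTie derives counts from the coverage of transcripts, so reads in shared exons are divided by an estimate.

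Counts were scaled by the trimmed mean of M-values, trimming 30% of log ratios and 5% of levels. Log2 fold changes were taken from CPM with a prior count of 2. Fold change intervals are exact 95% Clopper-Pearson intervals on the division of a gene's reads between the libraries, and level intervals are exact Poisson. Each condition had 1 library, so no p-value was computed. The calculation was tested on Poisson counts drawn from the measured means, with 200 genes changed by known folds. These draws hold counting error only, so they do not test the spread between cultures or the division of reads in shared exons. Transcript length, GC content, exons and exon sharing came from GENCODE release 29, and positions from RefSeq (GRCh38.p14). Of the 9992 protein-coding genes with at least 100 counts, 9951 had a transcript length, that of the longest transcript matched to a RefSeq one. Python 3.11.15, numpy 2.4.6, pandas 2.3.3, scipy 1.17.1, statsmodels 0.14.6 and matplotlib 3.10.9 were used.

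Genes were named if they were among the 5, lay just inside or outside the limit (5 each), were nearest to one of the 5 in fold change (3 each) or on the chromosome, belonged to a pathway list with at least 20 counts, or rose at least 2-fold without sharing exons. The 5 genes and the lists were chosen with earlier results of these data known. The alternatives were other scalings, prior counts, count and fold limits, the deposited FPKM and TPM with a pseudocount of 1, leaving out genes that share exons, and a robust fit on GC content and transcript length. Protein sequences were not used here, and the values of some genes that this rule names are not reported here.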

Additional observations from a re-analysis of the deposited data

How the results depend on the processing

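No paired analysis was possible because a condition comprised 1 library. Under 3 other scalings and prior counts of 0.5 and 5, the log2 fold change of each of the 5 genes stayed within its counting interval. TGFA ended just short of 2-fold under upper-quartile scaling and, at -0.97, under a prior count of 5. The rounded TPM gave log2 fold changes of 0 for PRRG4 and TGFA, and the rounded FPKM gave 0 for PRRG4, IL31RA and SCN8A and -1.58 for EPHA1. The number of the 5 genes at least 2-fold lower was thus 3 with TPM, 2 with FPKM and 3 with the fit on GC content and transcript length removed. For genes listed at 0 or 1, the TPM and FPKM outcome was set by those whole numbers and the pseudocount, so it is no check of their falls. No further cause of these numbers was tested. The number of protein-coding genes at least 2-fold lower was 87 with a minimum of 20 counts, 21 with 50, 5 with 200 and 430 with 1 count, against 77, 23, 5 and 547 higher. At 1.5-fold, 87 were lower and 74 higher. Leaving out genes that share exons on the same strand, or are not listed in GENCODE release 29, gave 6 lower and 5 higher, and on either strand 3 and 2, where the 3 lower genes are PRRG4, IL31RA and TGFA, and EPHA1 and SCN8A are left out. The median of the sodium channel list was -0.12 with a minimum of 100 counts, -0.17 with 1 count and -0.41 as a mean. The median of the interleukin 31 list became 0.11 as a mean, in which CLCF1 at 1.40 enters at its full size. PRRG4, IL31RA, SCN8A and TGFA have under 400 summed counts, so their falls are known to within a wide interval, and a further library per condition would be needed to know the spread between cultures. Whether both reads of a pair were counted is not given in the sources used here. If they were, the counting intervals are too narrow.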
